A study of Mus musculus with 4 samples.

Results

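The complement and coagulation genes are a set of 47 mouse genes for components, receptors and regulators of both plasma protease cascades, with serpin inhibitors left out. A member was taken as every probe set whose platform annotation gives that symbol and no other. Of the 47 genes, 43 had such a probe set, out of 18193 genes named in this way on the array, and they held 66 probe sets, 14 of the genes having more than 1. C3, Cfd and F2rl1 were not analysed here, and C4b shared its probe set with C4a. RNA was measured on 4 Affymetrix Mouse430_2 arrays. Resident liver stem cells (RLSC) were represented by a pair of lines with 1 array each, both grown from embryonic liver at 14 days post coitum. MetE14/3 carries the cyto-Met transgene, a truncated form of the hepatocyte growth factor receptor, and goes back to clone B2, and WTE14/1 is wild type. The source name of the wild-type sample reads WT E14/3, and its title is used here. MMH-D3, the differentiated hepatocytic line, had 2 arrays, and the age and genotype of the animal it came from are not in the labels. The labels of all 4 samples describe primary liver culture in RPMI-1640 with 10% serum, EGF, IGF-II and insulin. Those of RLSC alone add that palmate colonies were then expanded in DMEM with 10% serum for about 50 generations, so cell line and this expansion cannot be told apart.

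Complement is a set of plasma and membrane proteins that tag and lyse foreign cells. It starts from antibody-bound C1q, from the lectins Mbl1 and Mbl2 with their proteases Masp1 and Masp2, or from spontaneous turnover helped by factor B (Cfb), and it ends in a membrane pore of C6, C8 and C9. Coagulation starts when tissue factor (F3) meets factor VII, runs through factor X to thrombin, and ends in cleavage of fibrinogen, with plasmin dissolving the clot. Hepatocytes make most of the soluble components of both cascades. Thrombomodulin, tissue factor and the urokinase receptor sit on the surface of endothelial, epithelial or mesenchymal cells.

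Of 43 members with a probe set, 21 lay below the filter on low signals, and 22 were tested between RLSC and MMH-D3. The filter was set on the mean of log2(signal + 4) after normalization, at a level that equals about 11.7 signal units. Thrombomodulin (Thbd) was lower in RLSC and no member was higher, by limma with Benjamini-Hochberg adjustment over all 12598 genes tested. Among all those genes 0.516% were called lower and 0.397% higher. At an unadjusted p under 0.05 there were 7 of the 22 members, against 1558 of all genes. Both RLSC lines lay below both MMH-D3 arrays for 7 of the 22 (Cfb, C9, Cd55, Thbd, Proc, Tfpi and Plaur), where 21.4% of all genes tested did so, and above both for 4 (Masp1, Cfi, F8 and Procr), where 20.8% did. The groups overlapped for the other 11. The median difference over the 22 members was 0.07 on the log2(signal + 4) scale, beside 0.03 over all genes tested. Its sign was not settled, as the member median was -0.203 within the pair MetE14/3 and MMH-D3 array 1, -0.172 within the pair WTE14/1 and MMH-D3 array 2, and -1.388 to -0.164 in the fits without 1 array. A member reached the test by its mean over the 4 arrays, so a gene high in either group passed on that group's signal, and these counts describe the tested members and not all 47. No label states that separate cultures lie behind the MMH-D3 arrays, and p-values measure the spread between these samples, which may be technical. In cultures, fewer cells making a transcript and less transcript per cell cannot be told apart.

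**Figure D1:**
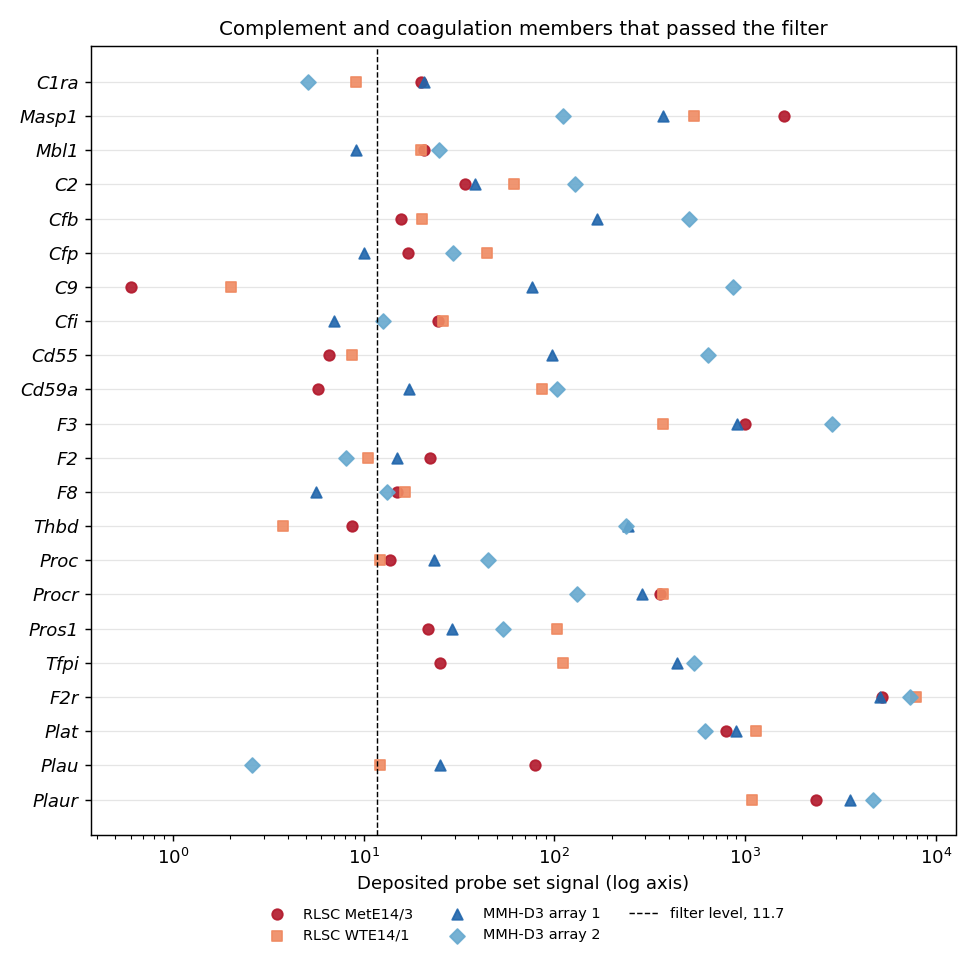
Deposited signal (log axis) of the 22 members that passed the filter, 1 symbol per array, with the filter level of 11.7 as a dashed line. RLSC lines are red and orange and MMH-D3 arrays blue. Thbd, C9, Cd55 and Cfb show both RLSC points far left of both MMH-D3 points, and F2r shows all 4 points between 5126 and 7895.

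Array facts touch every value below. Poly-A control transcripts, 24 probe sets spiked in before labelling, were 10.59-fold higher (median) on MetE14/3 and MMH-D3 array 1 than on WTE14/1 and MMH-D3 array 2, while 18 hybridization controls differed 0.878-fold. Each of these array pairs held 1 array of each group, so differences are also given within the pair of high poly-A signal (MetE14/3 minus MMH-D3 array 1) and the pair of low poly-A signal (WTE14/1 minus MMH-D3 array 2). Hepatocyte markers, 11 genes named on the array, summed to 578 and 246 in MetE14/3 and WTE14/1, and to 10053 and 15885 on MMH-D3 arrays 1 and 2, and 4 of the 8 tested (Afp, Apob, Ambp and Rbp4) were lower in RLSC. The liver enzymes Tat and Cps1 and the plasma protein Ahsg lay below the filter, also in MMH-D3.

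Thbd encodes thrombomodulin, the thrombin receptor that turns thrombin from a clotting enzyme into an activator of protein C. Its signal was 8.70 in MetE14/3 and 3.76 in WTE14/1, against 242 and 236 on the MMH-D3 arrays. Both RLSC lines were under the filter level, and the MMH-D3 arrays were nearly equal. The difference was -4.69 (SE 0.56, limma adjusted p = 0.0338, n = 2 each) on the log2(signal + 4) scale. As both RLSC signals were under the filter level, its size depends on the pseudocount, at -5.27 with 1 and -3.57 with 16, and no fold is given. It was -4.30 in the pair of high poly-A signal and -5.07 in the other. Leaving out any of WTE14/1, MMH-D3 array 1 or MMH-D3 array 2 ended the call (adjusted p = 0.0656, 0.0981 and 0.267), with differences from -4.79 to -4.26. Mesothelial markers were lower beside it. Their 6 genes summed to 3052 and 2173 in RLSC, against 13841 and 18562 in MMH-D3, and 3 of 5 tested (Upk1b, Wt1 and Bnc1) were lower. Msln alone read 2963 and 2107 in RLSC, which was most of both RLSC sums, and did not pass (difference -1.61, SE 0.37, limma adjusted p = 0.132). Endothelial markers, 12 genes, summed to 255 and 328 in RLSC and to 289 and 386 in MMH-D3, with no call among 6 tested and no unadjusted p under 0.05. Pecam1 was at 5.07 or less on every array, while 3 of the 12 lay above the filter level on all arrays. After normalization, both RLSC lines lay below both MMH-D3 arrays for 2 of the 6 and above both for 1. Flt1, of the lower, read 34.1 and 77.0 in RLSC against 86.0 and 145 in MMH-D3, its probe sets differing by -2.39 to -1.22. The part of these cell types in the Thbd difference was not tested.

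None of the other genes of the thrombomodulin branch passed, and their differences had unlike signs. Procr, the endothelial protein C receptor that presents protein C to thrombomodulin, had signals of 360 and 373 in MetE14/3 and WTE14/1 and 288 and 132 in MMH-D3. The RLSC lines were level with each other and above both MMH-D3 arrays, without passing (difference 0.86, SE 0.55, limma adjusted p = 0.635). Proc, the zymogen of the anticoagulant protease itself, was low on all arrays, at 13.8 and 12.2 in RLSC against 23.3 and 44.9 in MMH-D3 (difference -1.29, SE 0.56, limma adjusted p = 0.435). Pros1, protein S, the cofactor of activated protein C, read 21.7 in MetE14/3 and 104 in WTE14/1, with MMH-D3 at 29.2 and 53.9. Its MMH-D3 values lay between those of the RLSC lines (difference 0.10, SE 0.71). Procr thus lay above the filter level on every array, and Thbd on the MMH-D3 arrays alone.

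Tfpi encodes tissue factor pathway inhibitor, which blocks the tissue factor and factor VIIa complex. Its probe set of highest mean read 25.1 in MetE14/3 and 111 in WTE14/1, with MMH-D3 at 438 and 539. All 4 probe sets of the gene were lower in both RLSC lines than on either MMH-D3 array, with differences of -3.06 to -3.49. The probe set of highest mean did not pass (difference -3.13, SE 0.66, limma adjusted p = 0.114), whereas the median of the 4 probe sets did (-3.39, limma adjusted p = 0.0369). With each probe set tested on its own, the 3 others passed (limma adjusted p = 0.0432, 0.0493 and 0.0493). Across the pairs of high and low poly-A signal the difference was -3.87 and -2.39. Tfpi2, a related inhibitor, stayed at 5.11 or less on every array.

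F3 encodes tissue factor, the membrane receptor of factor VII that starts coagulation. It read 997 in MetE14/3 and 373 in WTE14/1, and MMH-D3 had 904 and 2859. MetE14/3 lay between the MMH-D3 arrays and WTE14/1 below both. The difference did not pass (-1.42, SE 0.72, limma adjusted p = 0.514), and it was 0.17 in the pair of high poly-A signal and -3.01 in the other, so its direction turned between the pairs. F2r, the protease-activated receptor that thrombin cleaves, had 5232 and 7895 in RLSC and 5126 and 7331 in MMH-D3. Those groups were level at this probe set (difference 0.10, SE 0.30, limma adjusted p = 0.950), and the second F2r probe set differed by 0.61 (SE 0.26) without passing when probe sets were tested singly (limma adjusted p = 0.474).

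In the plasminogen system the best-read probe sets of Plat and Plaur lay far above the filter level, and the gene of plasminogen itself lay below it. Plasminogen (Plg), a hepatocyte product, read 2.50 and 3.80 in MetE14/3 and WTE14/1, against 2.90 and 24.6 in MMH-D3, and did not reach the filter. Plat, tissue plasminogen activator, had 795 and 1147 in RLSC and 894 and 614 in MMH-D3, overlapping (difference 0.40, SE 0.42, limma adjusted p = 0.806). Its other probe set had at most 28.8 on any array and the opposite sign, and with the median of both the sign turned to -0.28. Plaur, the urokinase receptor, had 2341 and 1085 in RLSC against 3538 and 4683 in MMH-D3. Both RLSC lines were below both MMH-D3 arrays, without passing (difference -1.28, SE 0.43, limma adjusted p = 0.293). Plau, urokinase itself, read 79.6 in MetE14/3 and 12.1 in WTE14/1, with 25.2 and 2.60 on the MMH-D3 arrays. It was higher on both arrays of high poly-A signal than on either array of low signal. Its second probe set, at 52.9 and 20.1 in RLSC and 17.3 and 3.59 in MMH-D3, kept this order within each group but not across them.

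The fibrinogen chains and the liver clotting factors had signals of 47.1 or less on all 4 arrays, MMH-D3 included. Fga had signals of 0.70 and 1.35 in MetE14/3 and WTE14/1, and 0.40 and 1.72 in MMH-D3. Fgb reached 17.0 on MMH-D3 array 2 and 0.87 or less elsewhere, and Fgg 14.7 in MetE14/3 and 2.80 or less elsewhere. These 3 chain genes are direct neighbours on chromosome 3 in the RefSeq gene table, and none passed the filter. Of 8 genes for liver clotting factors, 7 (F5, F7, F9, F10, F11, F12 and F13b) lay below it, with a highest value of 47.1 for F5, a cofactor of prothrombin cleavage, on MMH-D3 array 2. F9, the factor lacking in haemophilia B, read 0.50 and 1.54 in RLSC and 11.7 and 15.2 in MMH-D3, and was not tested in this fit. Prothrombin (F2) passed the filter with 22.2 and 10.6 in RLSC, against 15.0 and 8.08 in MMH-D3, and its groups overlapped (difference 0.19, SE 0.71, limma adjusted p = 0.960). F8 and Vwf, factors that endothelial cells make, had signals of at most 16.6 and 6.81 on any array. F8 was slightly above both MMH-D3 arrays in RLSC (difference 0.47, SE 0.59, limma adjusted p = 0.846).

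**Figure D2:**
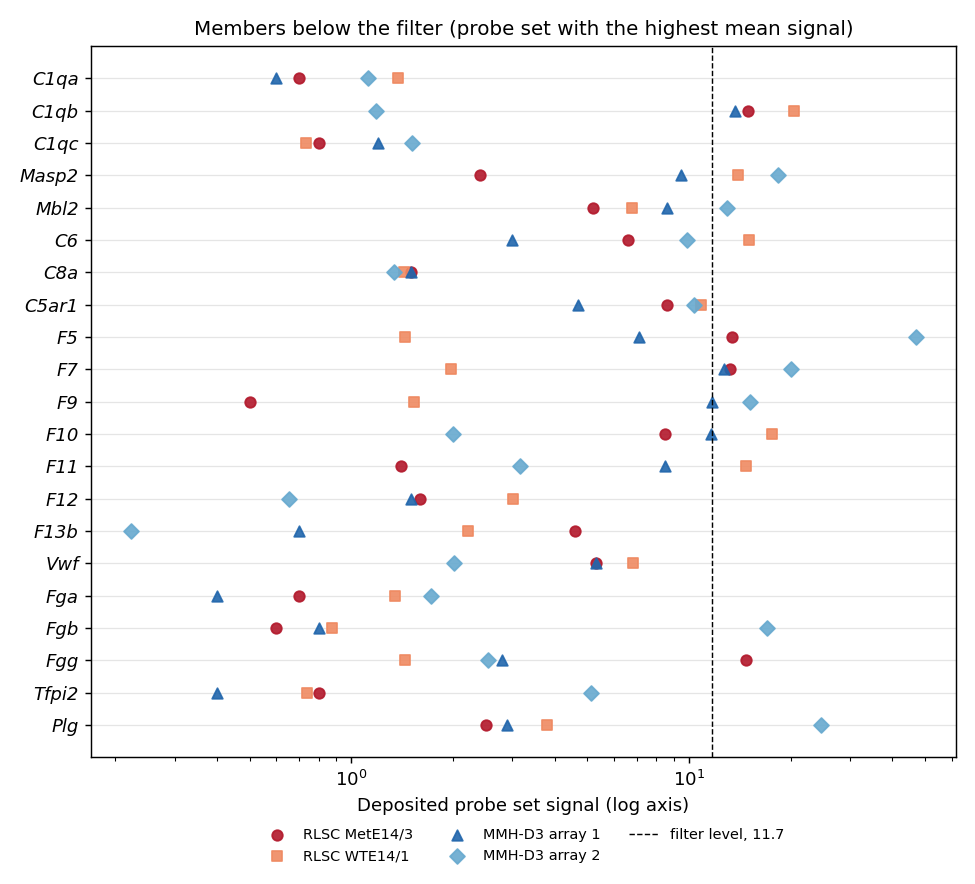
Deposited signal (log axis) of the 21 members below the filter, at the probe set of highest mean signal, 1 symbol per array, with the filter level of 11.7 as a dashed line. Fga, C1qa, C1qc, C8a and F12 stay at 3.01 or less on all arrays, and the highest point is F5 on MMH-D3 array 2 at 47.1.

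The stretches before the transcription start are shown for F3 and Plaur, which lay far above the filter level on all 4 arrays, and for Fga and Fgb, which did not pass it, as examples of coagulation members of high and of low signal. Each is the 200 bases upstream of the start in RefSeq, build GRCm38.p6, in the direction of the gene. Capitals mark matches on either strand to the letters TGANTCA (AP-1), GTTAAT (core of an HNF1 site), TTGCNNAA (C/EBP) and GGGCGG (Sp1), the Sp1 matches of Plaur overlapping each other.
F3 at chr3:121723337-121723536, plus strand: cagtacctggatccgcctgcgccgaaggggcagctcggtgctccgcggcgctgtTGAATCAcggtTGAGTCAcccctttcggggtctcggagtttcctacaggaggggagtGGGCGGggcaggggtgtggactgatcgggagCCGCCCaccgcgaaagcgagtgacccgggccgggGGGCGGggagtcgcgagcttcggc
Plaur at chr7:24462283-24462482, plus strand: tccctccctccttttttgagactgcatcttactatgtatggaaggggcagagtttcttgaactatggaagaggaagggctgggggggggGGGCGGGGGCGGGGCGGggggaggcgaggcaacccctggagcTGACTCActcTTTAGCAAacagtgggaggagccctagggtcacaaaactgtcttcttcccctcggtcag
Fga at chr3:83025953-83026152, plus strand: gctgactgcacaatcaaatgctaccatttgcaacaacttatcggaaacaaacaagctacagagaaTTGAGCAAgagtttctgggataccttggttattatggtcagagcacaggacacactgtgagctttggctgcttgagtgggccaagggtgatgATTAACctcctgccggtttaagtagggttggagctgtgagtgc
Fgb at chr3:83049864-83050063, minus strand: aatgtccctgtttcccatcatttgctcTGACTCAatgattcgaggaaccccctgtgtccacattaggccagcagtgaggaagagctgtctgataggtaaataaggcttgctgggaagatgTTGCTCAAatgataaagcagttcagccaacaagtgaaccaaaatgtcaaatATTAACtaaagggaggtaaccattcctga
F3 held 2 AP-1 matches, 146 and 135 bases before the start, and Plaur 1 at 69 bases. An HNF1 core match began 43 bases before the start in Fga and 29 in Fgb. Plaur, Fga and Fgb each held a C/EBP match, at 59, 135 and 80 bases. Fgb also held an AP-1 match at 173 bases. F3 and Plaur were not the members of highest signal. F2r, higher than both on every array and not printed, held Sp1 letters but no AP-1, HNF1 core or C/EBP letters.

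Over the 34 members with a promoter in the table, 14 were tested and 18 were below the filter. AP-1 letters stood in 4 of the tested (F2, F3, Plaur and Procr) and 2 of those below the filter (Fgb and Tfpi2), and in 5.48% of all 32851 promoter windows of this length. HNF1 core letters stood in 2 of the tested (C1ra and Cfp) and 5 of those below (C8a, F13b, Fga, Fgb and Tfpi2), and in 5.06% of all windows. C/EBP letters stood in 2 and 4 members of these kinds and in 7.47% of all windows, and Sp1 letters in 6 and 3 members and in 31.0%. Members were counted as genes with a match in any of their windows, and the percentages are of windows, 32851 for 27025 genes. The counts and percentages are thus in unlike units. These are matches of letters and not measured sites.

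Among complement genes, the largest differences were in Cfb, C9 and Cd55, all lower in RLSC at the level of signal and none passing the test. Cfb encodes factor B, the protease subunit of the alternative pathway convertase. Its signal was 15.7 in MetE14/3 and 20.3 in WTE14/1, with MMH-D3 at 168 and 507. The RLSC lines were close to each other and far below both MMH-D3 arrays, which differed from each other (difference -3.92, SE 0.61, limma adjusted p = 0.0542). Within the pairs of high and low poly-A signal it was -3.15 and -4.68, and with the array pair as a block it passed (limma adjusted p = 0.0451). C2, the classical pathway homologue of factor B and its direct neighbour on chromosome 17, read 34.2 and 61.4 in RLSC against 38.6 and 128 in MMH-D3. The C2 groups overlapped (difference -0.81, SE 0.60, limma adjusted p = 0.692), and a second C2 probe set that passed the filter went the other way (0.28). The shared C4a and C4b probe set, for the classical pathway component C4, read 26.0 and 36.1 in RLSC and 80.8 and 77.0 in MMH-D3, with no test as it names both genes.

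C9 encodes the component that polymerizes into the membrane pore. It read 0.60 in MetE14/3 and 2.01 in WTE14/1, while MMH-D3 had 76.2 and 865. RLSC was at the floor, and MMH-D3 array 2 was far above array 1. Of the 8 hepatocyte markers tested, 3 were also at least 4-fold higher on array 2, and 0 on array 1. Their median of array 1 minus array 2 was -0.80 on the log2 scale. Albumin (Alb) read 44.7 and 440 on arrays 1 and 2, and alpha-fetoprotein (Afp) went the other way, at 1457 and 923. The C9 difference was -5.82 (SE 1.04, limma adjusted p = 0.0750), and -4.35 and -7.28 within the pairs of high and low poly-A signal. With the array pair as a block, C9 passed (limma adjusted p = 0.0388). As RLSC was near 0, the size depends on the pseudocount. The other terminal components, C6 and C8a, had at most 15.1 and 1.50 on any array and did not pass the filter.

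Cd55, decay-accelerating factor, is a membrane protein that takes complement convertases apart. It had signals of 6.60 and 8.66 in RLSC, against 97.4 and 638 in MMH-D3. All 3 of its probe sets were lower in both RLSC lines than on either MMH-D3 array, with differences of -4.66, -4.23 and -2.66. A further probe set, annotated to both Cd55b and Cd55, was not counted and read 7.4 and 10.1 in RLSC and 6.2 and 1.59 in MMH-D3, all under the filter level. The first of the 3, of highest mean, did not pass (SE 0.84, limma adjusted p = 0.0762; 0.0490 with the array pair as a block). Both RLSC signals were under the filter level there, so the size depends on the pseudocount (-5.1 with 1 and -3.67 with 16). Cd59a, which blocks C9 insertion into the membrane, followed another order, at 5.80 in MetE14/3 and 86.0 in WTE14/1, with 17.3 and 104 on the MMH-D3 arrays. Both arrays of low poly-A signal were higher than both of high signal, also at its second probe set, and the groups overlapped (difference -0.88, SE 1.12, limma adjusted p = 0.847). Cfi, factor I, which cleaves C3b and C4b, had 24.6 and 26.0 in RLSC and 7.0 and 12.6 in MMH-D3 (difference 0.93, SE 0.56, limma adjusted p = 0.609).

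The upstream stretches of C9 and Cd55, the complement members with the largest differences, are given in the same way, as 200 bases before the start in GRCm38.p6 with the same matches in capitals.
C9 at chr15:6445146-6445345, plus strand: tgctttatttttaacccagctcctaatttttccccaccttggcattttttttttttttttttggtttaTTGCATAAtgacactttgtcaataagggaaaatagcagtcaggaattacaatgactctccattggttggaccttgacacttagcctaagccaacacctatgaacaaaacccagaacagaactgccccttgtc
Cd55 at chr1:130462745-130462944, minus strand: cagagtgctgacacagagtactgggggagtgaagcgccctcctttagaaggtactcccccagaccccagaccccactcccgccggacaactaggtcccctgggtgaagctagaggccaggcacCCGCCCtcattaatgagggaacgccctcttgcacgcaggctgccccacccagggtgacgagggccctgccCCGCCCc
C9 held a C/EBP match beginning 132 bases before the start and Cd55 held 2 Sp1 matches, at 77 and 7 bases, so these windows shared no kind of match.

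Masp1, the gene of lectin pathway proteases, was the member with the largest difference towards RLSC. Its probe set of highest mean read 1598 in MetE14/3 and 542 in WTE14/1, with MMH-D3 at 371 and 111. Both RLSC lines were above both MMH-D3 arrays, without passing (difference 2.17, SE 0.79, limma adjusted p = 0.336). It was 2.03 and 2.31 within the pairs of high and low poly-A signal. Of its 5 tested probe sets, 4 pointed this way (1.88 to 2.17) and the fifth the other way (-1.32), at signals of 57.2 or less. The gene gives several proteins by splicing, and the files do not say which transcript a probe set reads. Its partners in the lectin pathway were low. The mannose-binding lectin Mbl1 read 20.7 and 20 in RLSC against 9.10 and 24.7 in MMH-D3 (difference 0.16, SE 0.60), and Mbl2 and Masp2 did not pass the filter, at 18.4 or less on every array.

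The initiators of the classical pathway were near the floor. The C1q chains C1qa and C1qc stayed at 1.51 or less on all arrays. C1qb had 20.5 or less, with its highest values at a probe set whose suffix marks it as open to cross-hybridization. These 3 genes are direct neighbours on chromosome 4, none passed the filter, and macrophages are their known main source. C1ra, a C1 protease gene with a near-identical copy (C1rb), had 20 and 9.10 in RLSC against 20.7 and 5.09 in MMH-D3 (difference 0.05, SE 0.83). Properdin (Cfp), which stabilizes the alternative convertase, read 17.0 and 44.2 in RLSC against 10.0 and 29.6 in MMH-D3 (difference 0.36, SE 0.63), and the C5a receptor C5ar1 was below the filter, at 10.9 or less. Macrophage and blood cell markers, 12 genes, summed to 543 and 464 in RLSC and to 1973 and 3857 in MMH-D3. Cd14 alone had 365 and 209 in RLSC against 1799 and 3594 in MMH-D3, which was most of the sum in MetE14/3 and MMH-D3 but not in WTE14/1. Ptprc, Tyrobp, Fcer1g and Coro1a were at 13.7 or less on every array. Of the 12 genes, 5 lay above the filter level on all arrays and 9 on at least 1 array. Cd68 read 30.8 to 40.2 over the arrays, and Csf1r 37.3 to 79.0 at its probe set of highest mean. No marker passed among 6 tested, and 1 had an unadjusted p under 0.05. Platelet markers, 7 genes, summed to 124 and 203 in RLSC and to 104 and 148 in MMH-D3.

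**Figure D3:**
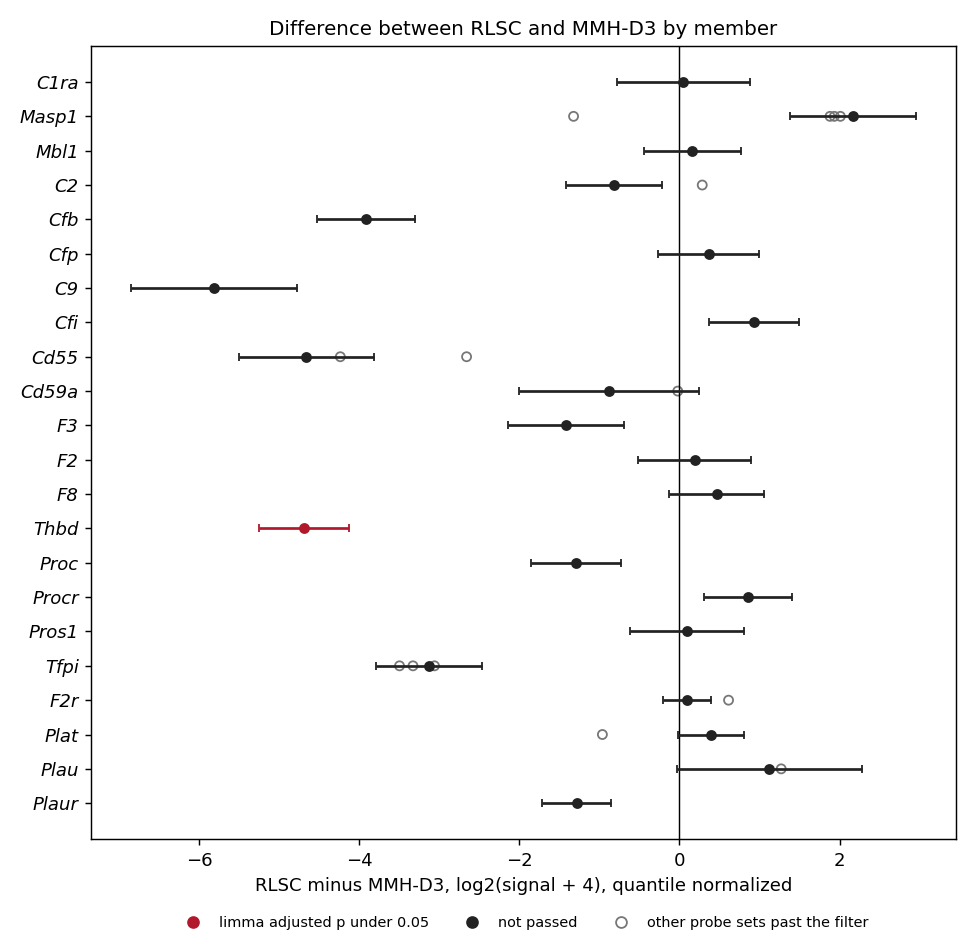
Difference between RLSC and MMH-D3 (log2 of signal + 4 after quantile normalization) for the 22 tested members, with bars of 1 SE. Red marks Thbd, the member with limma adjusted p under 0.05, and open circles mark the other probe sets past the filter, which lie beside the main point for Tfpi and on the other side of 0 for 1 probe set each of Masp1, C2 and Plat.

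Other genes of both cascades gave no call. Of 66 further genes, 52 had a probe set, 21 were tested and none passed with limma, 1 having an unadjusted p under 0.05 (Fcna, a ficolin of the lectin pathway, named after its value was seen). Fcna read 7.20 and 11.5 in RLSC against 34.1 and 56.0 in MMH-D3 (difference -2.08, SE 0.54, limma adjusted p = 0.177). Among complement genes of high mean, clusterin (Clu), an inhibitor of the membrane pore, had 8867 and 2719 in RLSC and 7992 and 10596 in MMH-D3. Cr1l, the rodent membrane regulator Crry, had 1007 and 608 in RLSC against 1119 and 1050 in MMH-D3, and the mitochondrial C1q-binding protein C1qbp 7537 and 7554 against 8960 and 5656. So Cr1l differed by -0.44 (SE 0.40) where Cd55, a regulator of the same convertases, differed by -4.66 (SE 0.84), and the difference between them was not tested. The size for Cd55 depends on the pseudocount, as its RLSC signals were under the filter level.

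The other coagulation genes were named by the highest mean, so their signal is high by choice. Vkorc1, the vitamin K reductase that warfarin blocks, had 607 and 759 in RLSC and 821 and 654 in MMH-D3 (difference -0.09, SE 0.39). Mcfd2, a subunit of the cargo receptor for factors V and VIII, had 987 and 1252 in RLSC and 941 and 1516 in MMH-D3 (difference -0.07, SE 0.41). Plgrkt, a plasminogen receptor, had 644 and 531 in RLSC against 716 and 958 in MMH-D3 (difference -0.52, SE 0.39). Of 8 serpin inhibitors of the cascades, 6 had a probe set and 2 were tested. Heparin cofactor II (Serpind1) had 19.2 and 14.6 in RLSC and 35.4 and 17.7 in MMH-D3, and the C1 inhibitor Serping1 10.2 and 20.2 in RLSC and 14.6 and 17.6 in MMH-D3, neither passing.

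MetE14/3 was also compared with WTE14/1, with 1 array a line and no test. Of the 22 members, Plau was at least 4-fold higher in MetE14/3 (2.61 on the log2 scale), where 2.8% of all genes tested were, and Cd59a at least 4-fold lower (-2.94), where 2.33% were. On the MMH-D3 arrays, array 1 was at least 4-fold above array 2 for Plau (2.50; 3.02% of all genes tested) and at least 4-fold below it for C9 (-3.19) and Cd55 (-2.42; 2.94% of all genes tested). Cd59a differed between those arrays by -1.97. So both members that separated the lines also separated the MMH-D3 arrays the same way, along the pairs of unlike poly-A signal, and line and array pair cannot be told apart. Pros1 (-1.78) and Tfpi (-1.73) were lower in MetE14/3 with smaller gaps on the MMH-D3 arrays (-0.39 and -0.25). The Tfpi gap is that of its probe set of highest mean. Its other probe sets read 28, 44.9 and 25.8 in MetE14/3 and 33.3, 63.3 and 23.9 in WTE14/1. Masp1 (1.56), F3 (1.45) and C1ra (1.22) were higher in MetE14/3. The MMH-D3 arrays differed more widely and along the same pairs for Masp1 (1.85) and C1ra (1.80), and the opposite way for F3 (-1.73). Thbd, C9, Cd55 and Cfb, the members with the widest gaps between RLSC and MMH-D3, differed between the RLSC lines by 0.96, -0.26, 0.03 and 0.12. For Thbd, C9 and Cd55 both RLSC signals were under the filter level, where the pseudocount narrows differences.

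**Figure D4:**
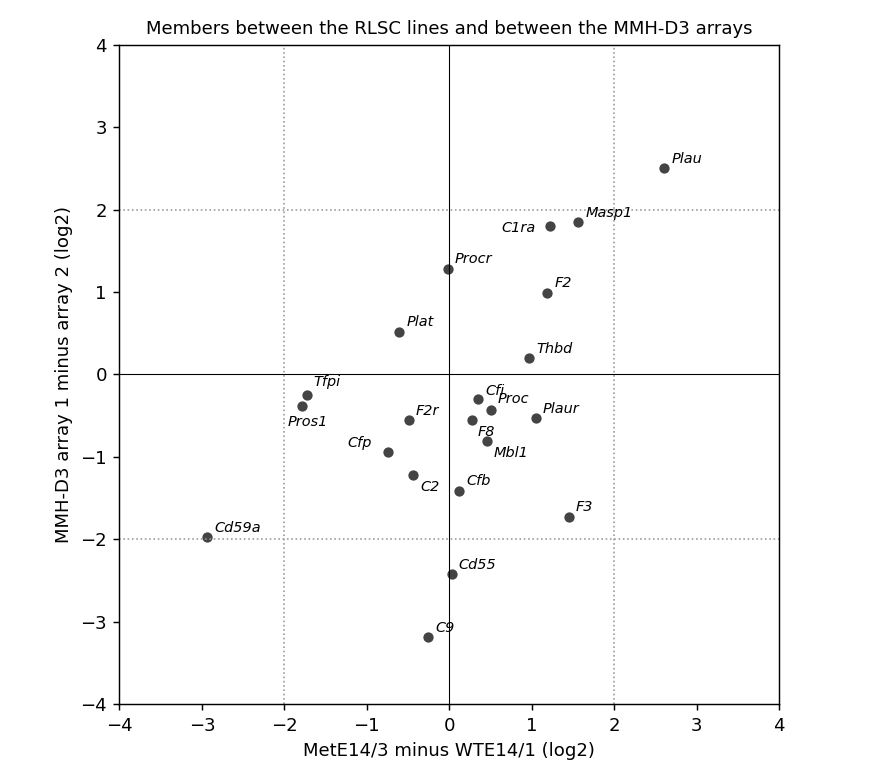
Each point is 1 of the 22 tested members, with MetE14/3 minus WTE14/1 on the horizontal and MMH-D3 array 1 minus array 2 on the vertical axis, both in log2 of signal + 4 after quantile normalization, and dotted lines at 4-fold. Plau and Cd59a lie past 4-fold between the lines and at 2.50 and -1.97 between the MMH-D3 arrays, and C9 and Cd55 lie past 4-fold between the MMH-D3 arrays alone.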

How the data were processed

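RNA of 4 samples was hybridised to Mouse430_2 arrays from 5 μg of total RNA. The deposited signal of a probe set is a linear intensity from GCOS, per the submitters' processing notes. Neither version nor settings of that software were given in the sources. Detection calls were not used. The mean without the lowest and highest 2% of signals was 200.001 on every array. Of 45101 probe sets, 64 were controls, 34945 had 1 symbol, 932 several and 9160 none. Of those with 1 symbol, 34741 matched the RefSeq gene table (GRCm38.p6) by Entrez identifier and 0 symbols changed.

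Signals were taken as log2(signal + 4), 4 being the rounded 20th percentile, which understates folds of low genes. They were quantile normalized, as array medians differed by 0.614 (rule: over 0.25), and those under the 40th percentile by mean were dropped. The probe set of highest mean stood for its gene. Groups were compared with limma 3.58.1 in R 4.3.3 (lmFit, eBayes with trend, 2 residual and 4.24 prior degrees of freedom), two-sided, adjusted over all genes at 0.05. The fit was run on simulated data, with a pass rule on the sign of planted changes only. Recovery and false calls had no such rule. All members were to be named by role, and of other pathway genes those passing or, where under 3 did, the 3 of highest mean. The members, lists, rules and alternatives were chosen with earlier results of these data known. The number of arrays limits the precision.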

Additional observations from a re-analysis of the deposited data

How the results depend on the processing

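Thbd passed in 8 of 12 gene-level alternatives, with differences from -5.27 to -3.57 and adjusted p from 0.0246 to 0.267, and did not pass without a filter (-4.69, adjusted p = 0.0657). Leaving out 1 array at a time gave 0 to 206 called genes, 0 to 1 called members, a member median of -1.388 to -0.164, and Thbd differences of -5.15 to -4.26. Called genes numbered 115 in the reported fit and 9 without a filter, and 198 probe sets were called with each on its own. Called members numbered 0 without a filter, 3 with the median of probe sets (Cfb, Tfpi and Thbd), 4 with the array pair as a block (C9, Cd55, Cfb and Thbd) and 4 probe sets with each tested on its own (Thbd and 3 of Tfpi). The member median was -1.048 at the 60th percentile filter, where 12 members were left. Members at least 4-fold apart between the RLSC lines numbered 1 with a pseudocount of 16 and 0 at the 60th percentile filter, against 2 as reported. No alternative called another pathway gene.

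Signs turned for members that did not pass: C1ra to -0.01 with a pseudocount of 16, Plat to -0.28 with the median of probe sets, and, over the fits without 1 array, C1ra (-0.85 to 0.64), Mbl1 (-0.25 to 0.56), Cd59a (-2.34 to 0.57), Cfp (-0.11 to 0.84), Pros1 (-0.80 to 0.98), F2r (-0.18 to 0.37), F2 (-0.30 to 0.76) and Plau (-0.12 to 2.44). The cause was not tested. A fit without 1 array assumes that the lone array of its group varies like the others. Within-pair values carry no test, so they give no counts of calls. No block by replicate number was fitted, as the RLSC titles carry no such numbers, and the block used is the array pair by poly-A signal.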
